A study of Arabidopsis thaliana with 18 samples.

Results

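The plastid genome of Arabidopsis thaliana was followed in 3-day-old seedlings grown in darkness at 21 °C on half-strength Murashige and Skoog medium. The genes described are those encoded on the plastid chromosome, other than the plastid ribosomal RNAs. They were 125 of the 32833 rows in each library's table, 88 coding and 37 for transfer RNAs, and 115 of them had at least 1 read in some library. The libraries fall into 6 groups of 3. GNLox, a line that overexpresses the B-GATA transcription factor gene GNL, was grown with 1% sucrose in the medium or without it. gnc gnl, a double mutant of GNL and its paralog GNC, was grown in the same pair of conditions, and so was Col-0, the wild type and the background of both lines. The alleles of gnc gnl and the promoter of the GNL transgene are not given in the labels. The labels do not say whether the 3 libraries of a group are separate cultures, so the p-values rest on spread among libraries that may be technical.

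The plastid chromosome encodes subunits of the photosystems, of the cytochrome b6f complex, of the ATP synthase and of the NDH complex, the large subunit of Rubisco, part of the plastid ribosome and a few other proteins. Its genes sit in operons that are read by a pair of RNA polymerases. The plastid-encoded polymerase (PEP) has a bacterial-type core made from rpoA, rpoB, rpoC1 and rpoC2, works with nuclear-encoded sigma factors and associated proteins, and reads mainly photosynthesis genes. The nuclear-encoded polymerase (NEP) is of the phage type and reads, among others, the rpoB operon, accD and ycf2. In darkness the plastids of young leaves and cotyledons stay as etioplasts, which have no chlorophyll and no thylakoid stacks, and light then turns them into chloroplasts. GNC and GNL are known as promoters of greening and chloroplast development.

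Total gene reads per library were 27362791 to 41942516, of which 90928 to 1020392 came from the plastid genes. GNL averaged 4193 ± 1243 CPM (reads scaled to the normalized library size) in GNLox with sucrose, against 1.90 ± 0.808 CPM in Col-0 with sucrose (SD, n = 3 each). In gnc gnl with sucrose, GNC had 5.27, 6.31 and 6.41 CPM and GNL 3.89, 5.32 and 3.16 CPM, against 12.5, 18.6 and 12.1 CPM and 0.971, 2.38 and 2.36 CPM in Col-0 with sucrose, so with sucrose GNL reads were not lower in the mutant. Without sucrose, GNC had 9.26, 9.23 and 8.51 CPM and GNL 7.12, 10.6 and 11.1 CPM in gnc gnl, against 17.3, 35.4 and 29.4 CPM and 5.85, 21.8 and 12.9 CPM in Col-0. There GNC was called lower (-1.61 ± 0.29, adjusted p = 0.0195 by edgeR), and GNL, whose libraries overlapped, was not (-0.49 ± 0.40, adjusted p = 0.526). Where these reads lie relative to the mutations was not tested. Low GNC was not particular to gnc gnl. GNLox with sucrose had 5.17, 8.73 and 4.18 CPM of GNC, called lower than Col-0 with sucrose (-1.25 ± 0.29, adjusted p = 0.00818 by edgeR). With sucrose GNC also fell within GNLox (-1.44 ± 0.29) and within Col-0 (-0.93 ± 0.28). GNL fell with sucrose in Col-0 (-2.81 ± 0.44) and in gnc gnl (-1.23 ± 0.41). PORA, the protochlorophyllide oxidoreductase of dark-grown seedlings, was read in every library. GNLox with sucrose, replicate 2, differed from its group in PORA, with 370.3 CPM against 88.4 and 91.3 CPM in the other replicates. Without sucrose, GNLox replicate 3 stood apart. Its nuclear ribosomal RNA took 25.4% of gene reads, and it was the highest of all 18 libraries for 88 of the 92 plastid genes that entered the test. For 73 of the 92 genes the lowest library was GNLox replicate 2 with sucrose.

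Plastid RNA was scarcest in GNLox seedlings grown with sucrose. Its share of all gene reads was 0.443, 0.253 and 0.335% in the GNLox libraries with sucrose, against 0.972, 1.39 and 3.05% in GNLox without sucrose and 1.37, 1.47 and 0.829% in Col-0 with sucrose. All 3 libraries of GNLox with sucrose were below every other library of the series. In the other groups the share was 0.962, 0.791 and 1.70% in gnc gnl with sucrose, 0.924, 1.26 and 1.17% in gnc gnl without sucrose and 1.27, 1.84 and 2.15% in Col-0 without sucrose. These groups overlapped each other. The 95% Wilson interval of a share, which covers counting error only, was 0.251% to 0.255% in the library with the fewest plastid reads, so counting error was small beside the spread within groups. In whole seedlings, fewer or smaller plastids and less RNA per plastid cannot be told apart.

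The share of nuclear ribosomal RNA was also lowest in GNLox with sucrose. It was 4.40, 1.00 and 2.52% in GNLox with sucrose, against 6.19, 4.96 and 25.4% in GNLox without sucrose and 21.96, 13.2 and 5.59% in Col-0 with sucrose. Reads of mitochondria-encoded genes other than rRNA were also fewest in GNLox with sucrose, at 0.0355, 0.0169 and 0.0322% of gene reads, against 0.0516, 0.0573 and 0.137% in GNLox without sucrose and 0.168, 0.148 and 0.0776% in Col-0 with sucrose. Plastid, mitochondrial and ribosomal RNA were thus low together. How messenger RNA was selected or ribosomal RNA removed is not given in the sources used here, and its part in the plastid levels was not tested. Set against 100 nuclear rRNA reads, plastid reads numbered 10.07, 25.3 and 13.3 in GNLox with sucrose, against 15.7, 28.1 and 12.01 in GNLox without sucrose and 6.23, 11.1 and 14.8 in Col-0 with sucrose, and on this scale the groups overlapped.

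**Figure D1:**
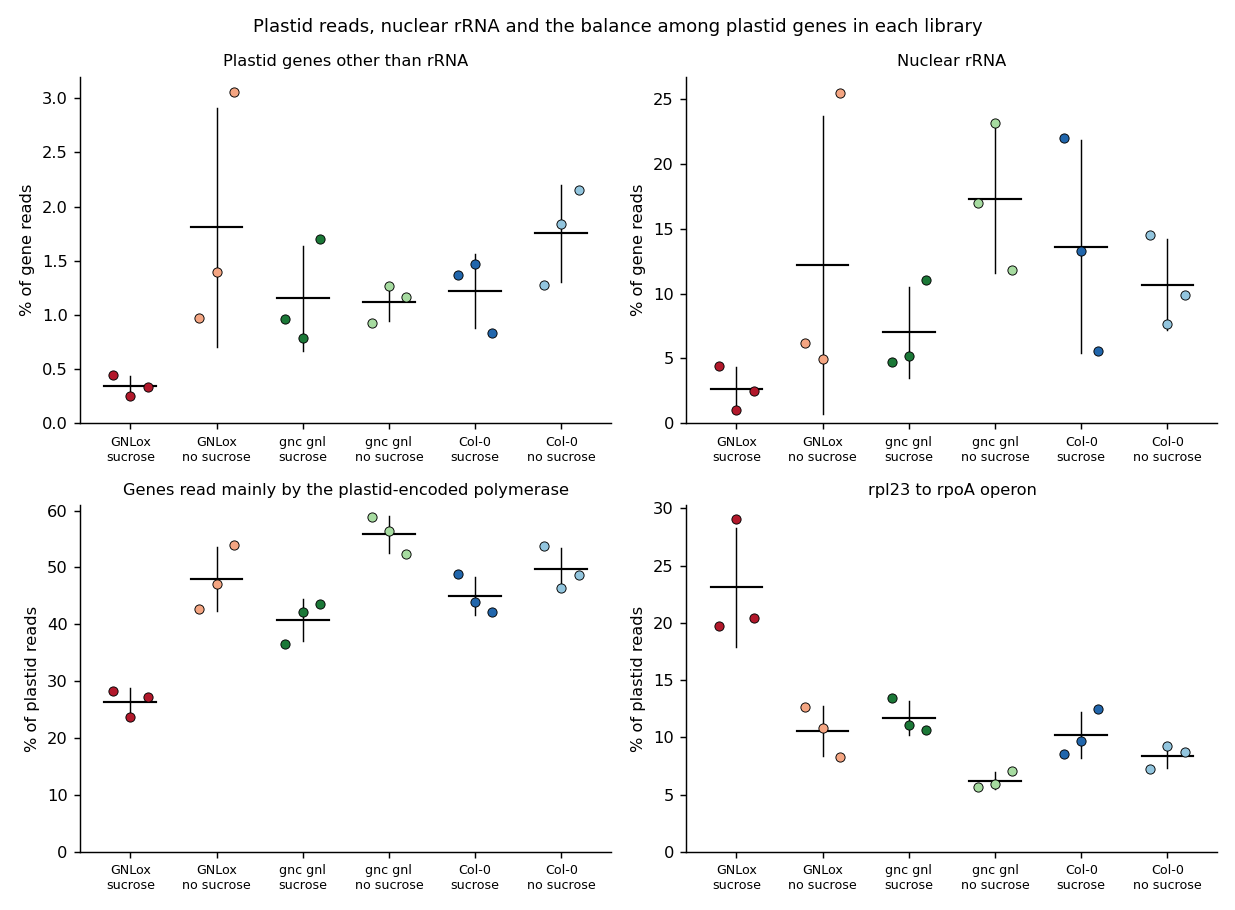
Shares of reads in each of the 18 libraries, by group on the x axis; the upper panels give plastid genes and nuclear rRNA as a percentage of all gene reads, and the lower panels give 2 sets of plastid genes as a percentage of plastid reads. Points are libraries, horizontal lines group means and vertical lines SD of 3 libraries. GNLox with sucrose has plastid shares of 0.253% to 0.443% and the lowest share of genes read mainly by the plastid-encoded polymerase, 23.7% to 28.3%, while its share of the rpl23 to rpoA operon, 19.7% to 29.1%, is the highest.

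In GNLox seedlings sucrose went with lower levels of nearly the whole plastid genome. Of the 92 plastid genes tested, 88 fell and none rose with sucrose, and the median log2 difference was -2.83 (edgeR's quasi-likelihood test, Benjamini-Hochberg adjusted p under 0.05). Over all 21903 genes tested, 26.1% fell and 28.7% rose, with a median of 0.03. The 3 libraries with sucrose were all below the 3 without it for 88 of the 92 genes, as they were for 25.7% of all genes. A filter on low counts kept 84 of the 88 coding genes, and the other 4, psbM, psbT, petN and petL, had at most 43 reads over the 18 libraries. With replicate 3 of GNLox without sucrose left out, 76 plastid genes fell and the median was -1.83. The share of all genes that fell in that fit is not given here. In the same comparison 45 of 57 tested mitochondria-encoded genes fell (median -2.07), as did 2 of 4 nuclear rRNA genes (median -2.24) and 7 of 8 plastid rRNA genes (median -3.91).

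Among these genes the fall was graded by function. rbcL, which encodes the large subunit of the carbon-fixing enzyme Rubisco (ATCG00490, plastid positions 54958 to 56397, plus strand, TAIR10), fell most with all libraries. It had 112, 52.7 and 70.6 CPM in GNLox with sucrose, against 448, 729 and 5262 CPM without it, and the groups did not overlap. That is a log2 difference of -4.77 ± 0.85 (SE) and an adjusted p of 0.000280. Replicate 3 without sucrose sets much of this size, since the difference was -2.89 with it left out. The rank of rbcL rests on that library too, since psaB was then at -2.91.

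All 13 tested photosystem II genes fell, with a median log2 difference of -3.92. psbC and psbD, for the inner antenna protein CP43 and the reaction centre protein D2, had the highest levels per length of this group. psbC had 168, 79.3 and 124 CPM with sucrose, against 711, 997 and 3896 CPM without it (-3.92 ± 0.63, adjusted p = 0.000132 by edgeR). For psbD the values were 118, 58.1 and 85.5 CPM against 491, 691 and 2583 CPM (-3.85 ± 0.62). Both genes share an operon with psbZ and fell to a like extent. psbL, a small core subunit, psbF and psbE, the subunits of cytochrome b559, fell by 4.62, 4.52 and 4.32 on the log2 scale. psbL was read only 4, 1 and 4 times in GNLox with sucrose, against 22, 20 and 90 times without it, so its size is loosely fixed. Least changed of the group was psbI, at -2.19 ± 0.77.

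Of photosystem I, all 5 genes fell. psaA and psaB, which encode the paired reaction centre proteins, stood at 174, 84.7 and 129.8 CPM and 186, 89.5 and 138 CPM with sucrose, against 674, 1225 and 4282 CPM and 723, 1362 and 5051 CPM without it. Their log2 differences were -3.99 ± 0.60 and -4.11 ± 0.62, and rps14, a ribosomal protein gene read from the same operon, moved with them (-4.03 ± 0.60). rps14 had 18.7, 8.31 and 12.8 CPM with sucrose, against 67.1, 132 and 454 CPM without it. No other ribosomal protein gene fell as far. The cytochrome b6f genes petB and petD, for cytochrome b6 and subunit IV, had 74.2, 27.2 and 48.7 CPM and 50.04, 18.8 and 34.4 CPM with sucrose, against 236, 379.8 and 1646 CPM and 165, 255 and 1083 CPM without it (-3.91 ± 0.64 and -3.86 ± 0.64). They are read with psbB, the inner antenna protein CP47, which fell by 4.21. All 4 tested cytochrome b6f genes fell.

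The 6 ATP synthase genes fell by less, with log2 differences of -3.26 to -2.84. atpA and atpF encode the alpha subunit of the catalytic head and a subunit of the stalk. For atpA the levels were 206, 83.8 and 157 CPM with sucrose, against 556, 883 and 2696 CPM without it (-3.21 ± 0.54), and for atpF 98.9, 38.3 and 73.5 CPM against 243, 347 and 1226 CPM (-3.11 ± 0.56). The NDH complex, which passes electrons around photosystem I, had 11 of its 12 rows lower, and its median was -2.72. ndhA and ndhG, 2 membrane subunits, had 98.5, 58.98 and 79.8 CPM and 25.6, 12.2 and 18.8 CPM with sucrose, against 201, 265 and 831 CPM and 56.6, 71.7 and 251 CPM without it. Neither gene's groups overlapped. The photosystem I assembly factors ycf3 and ycf4 fell as well; ycf3 had 44.3, 20.8 and 34.2 CPM against 98.9, 137 and 469 CPM, and ycf4 36.3, 14.2 and 28.6 CPM against 93.3, 146 and 443 CPM.

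Genes of the plastid's own expression machinery had the smallest group medians. All 11 rows for the large ribosomal subunit and all 15 for the small one fell, but their medians were -2.19 and -2.39. rpl16 (ATCG00790, positions 81189 to 82652, minus strand) had 156, 139 and 118 CPM with sucrose, against 211, 248 and 727 CPM without it (-1.52 ± 0.42, adjusted p = 0.00673 by edgeR). Without replicate 3 of GNLox without sucrose its difference was -0.72 and was no longer called. The PEP core genes rpoA and rpoC1 had 66.8, 48.3 and 50.2 CPM and 47.3, 28.03 and 37.8 CPM with sucrose, against 97.8, 115 and 299.9 CPM and 84.00, 131 and 422 CPM without it. rpoA, the last gene of the same operon as rpl16, differed by -1.63 ± 0.41, and rpoC1, in the rpoB operon, by -2.49 ± 0.53. The 13 rows of the rpl23 to rpoA operon had a median of -1.72, against -3.96 for 14 tested genes read mainly by PEP and -2.34 for 6 rows read mainly by NEP. With replicate 3 of GNLox without sucrose left out, the first 2 of these medians were -0.99 and -2.76.

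Genes with other functions lay between. clpP1, the plastid-encoded subunit of the Clp protease, had 84.04, 41.98 and 59.2 CPM with sucrose, against 168, 210.0 and 788 CPM without it (-2.65 ± 0.53). matK, the intron maturase that lies in the trnK intron, had 61.97, 21.01 and 42.9 CPM against 129, 166 and 616 CPM (-2.85 ± 0.61). The full-length ycf1, which encodes a large protein of the inner envelope, was not called: it had 77.02, 60.5 and 63.3 CPM against 74.8, 74.2 and 213 CPM, its groups overlapped, and the difference was -0.85 ± 0.45 (adjusted p = 0.126 by edgeR). The shorter ycf1 row, ATCG01000, did fall (-2.49 ± 0.56, adjusted p = 0.00177 by edgeR). It spans 1032 bases, against 5361 for the full-length row. Whether reads of the shorter row also match full-length ycf1 was not tested, so these rows are not taken as separate measures of ycf1. Only 8 of the 37 transfer RNA rows could be tested, and of these trnK, trnG, trnL, trnV, trnI and trnA were read almost wholly in their introns, so their values are not those of mature transfer RNAs. Of the 8 rows, 7 fell. Among transfer RNA rows, the authors' TPM, which rests on exon reads, was highest for 2 serine transfer RNAs, at ATCG00290 and ATCG00090. The first had only 5, 0 and 1 reads in GNLox with sucrose, against 18, 19 and 61 without it (-4.67 ± 0.99), and the second 5, 0 and 2 reads against 15, 25 and 54 (-4.38 ± 0.95). The strand of the first also differs between the deposited table and the RefSeq annotation.

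**Figure D2:**
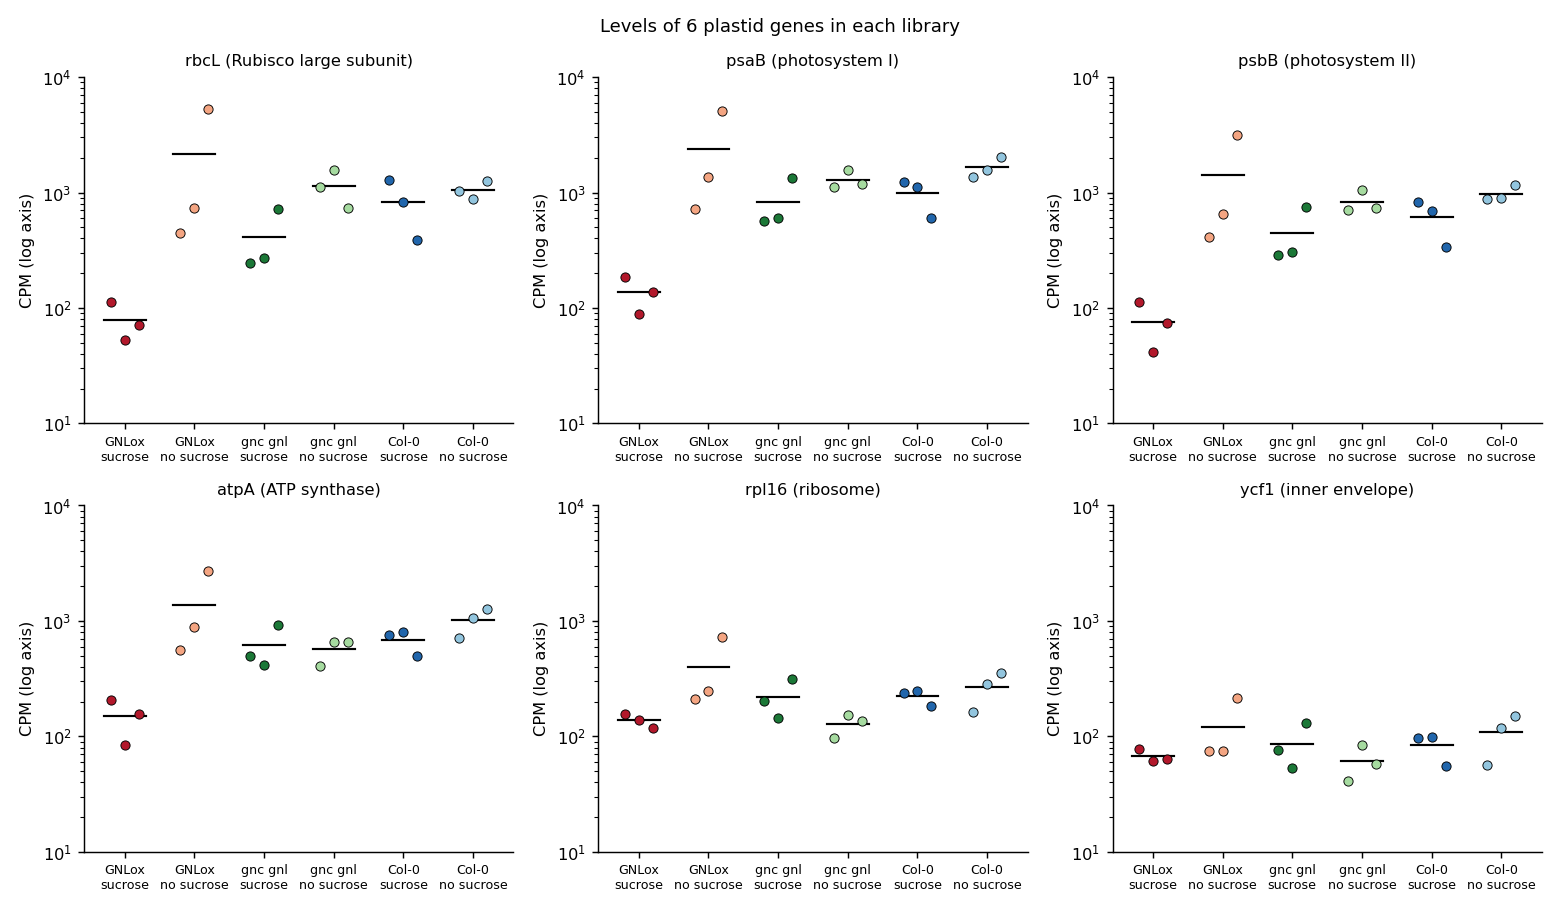
Levels of 6 plastid genes in each library in CPM on a log axis, by group on the x axis; points are libraries and lines are group means. GNLox with sucrose lies below all other libraries for rbcL, psaB, psbB and atpA, and within or near the other groups for rpl16 and full-length ycf1.

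Some of these genes lie in the inverted repeat, a stretch present in 2 copies on the plastid chromosome, and their reads match both copies. The split between copies was uneven, with 2.91% to 52.9% of rps7 reads and 3.60% to 50.5% of ndhB reads assigned to the second copy, so these copies are described by their sum. rps7, a small-subunit protein gene, had 43.7, 25.8 and 34.1 CPM in GNLox with sucrose, against 118, 164 and 631 CPM without it (-3.14 ± 0.54, adjusted p = 0.000219 by edgeR). rpl2, a large-subunit gene next to rpl23, had 201, 154 and 155 CPM against 423, 565 and 1793 CPM (-2.45 ± 0.47). With copies summed, 85 plastid genes were tested and 84 of them fell.

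The same genes were low in GNLox when the comparison was with Col-0 on the same medium. Both comparisons share the 3 GNLox libraries with sucrose, so they are not independent of each other. Against Col-0 with sucrose, 64 of the 92 plastid genes fell and none rose, with a median log2 difference of -2.10 (edgeR). Over all genes 10.2% fell and 10.2% rose. With each library's nuclear rRNA level as a covariate 5 plastid genes fell, beside 4.1% of all genes, the median was -0.69, and rpoA and rpl16 were at 0.088 and 0.18, neither of them called. Without that covariate all 92 differences were negative, and for 81 genes the 3 GNLox libraries lay below the 3 of Col-0, as they did for 18.5% of all genes. Of the mitochondria-encoded genes 49 of 57 fell (median -2.41), and of the nuclear rRNA genes 2 of 4 (median -1.64). The number of plastid genes called was 31 without GNLox replicate 2, 47 without GNLox replicate 3, and 40 when either Col-0 replicate 1 or Col-0 replicate 2 was left out, all with sucrose. The same 29 genes were called in all 6 fits that left out 1 library. The shares of all genes called in these fits are not given here.

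Photosynthesis genes again led. rbcL had 112, 52.7 and 70.6 CPM in GNLox, against 1286, 820.0 and 389 CPM in Col-0 (-3.40 ± 0.80, adjusted p = 0.00885). All 13 photosystem II genes, 4 of 5 photosystem I genes, all 4 cytochrome b6f genes and all 6 ATP synthase genes fell. psaB and psbC had 1235, 1112 and 601 CPM and 1103, 1001 and 498 CPM in Col-0 with sucrose, and their log2 differences were -2.84 ± 0.59 and -2.81 ± 0.60. psbE, with 8.37, 3.86 and 5.54 CPM in GNLox against 73.5, 54.8 and 25.4 CPM in Col-0 (-3.12 ± 0.74), and psbL (-3.10 ± 0.91) followed rbcL in size. Values of petB and petD in Col-0 with sucrose were 445, 412 and 223 CPM and 319, 289 and 153 CPM, and those of psaA and psbD were 1138, 990.0 and 551 CPM and 677, 650.2 and 341 CPM. GNLox did not overlap Col-0 for any of these genes.

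All 6 ATP synthase genes and both assembly factors were among those that fell. atpA and atpF had 753, 803 and 497 CPM and 346, 373 and 213 CPM in Col-0 with sucrose, and GNLox differed from it by -2.20 ± 0.51 and -2.14 ± 0.54 on the log2 scale. Of the NDH complex, 10 of 12 rows fell. ndhA and ndhG stood at 268, 302 and 163 CPM and 83.5, 93.4 and 51.5 CPM in Col-0 with sucrose (-1.63 ± 0.48 and -2.01 ± 0.52 in GNLox against it). ycf3, ycf4, clpP1 and matK also fell, by 1.79, 2.15, 1.80 and 2.34; their Col-0 levels with sucrose were 114 ± 27.4, 117 ± 29.97, 215 ± 60.3 and 213 ± 91.2 CPM (SD, n = 3).

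Fewer genes of the expression machinery were called. Of the 4 polymerase genes 1 fell, rpoC1 (-1.50 ± 0.51, adjusted p = 0.0491 by edgeR). rpoA had 66.8, 48.3 and 50.2 CPM in GNLox, against 99.4, 108 and 75.9 CPM in Col-0, and although the groups did not overlap it was not called (-0.78 ± 0.40, adjusted p = 0.1800). Of the 11 rows of the large ribosomal subunit 3 fell, and of the 15 rows of the small subunit 8 did. rpl16 had 156, 139 and 118 CPM in GNLox, against 236, 246 and 184 CPM in Col-0, a difference of -0.69 ± 0.41 that was not called (adjusted p = 0.255). By contrast rps14 fell by 2.74, with 109, 97.6 and 58.3 CPM in Col-0 with sucrose. Summed over their copies, rps7 fell (-1.96 ± 0.52) and so did rpl2 (-1.42 ± 0.46). In the rpl23 to rpoA operon the 9 genes with 1 copy differed by -0.57 to -0.81 and none of them was called. By contrast, 14 of 14 tested genes read mainly by PEP fell, by 2.67 to 3.40. Genes read mainly by NEP, rpoC1 among them, lay between these sets. accD differed by -1.74, rpoC2 by -1.33 and rpoB by -1.24. With its copies summed, ycf2 fell (-2.23 ± 0.60, adjusted p = 0.0173 by edgeR).

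**Figure D3:**
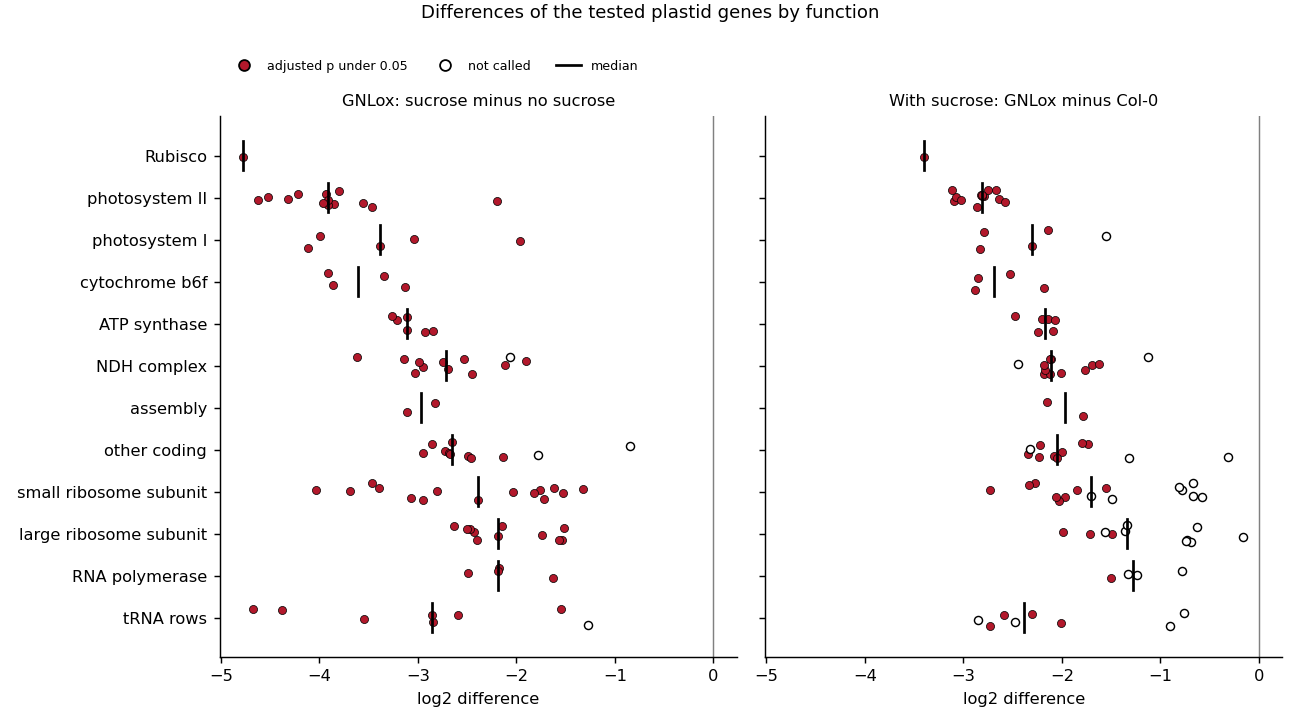
log2 differences of the 92 tested plastid genes by function, for GNLox with sucrose against GNLox without it (left) and GNLox against Col-0 with sucrose (right). Points are genes, filled where edgeR's adjusted p was under 0.05, and vertical lines are medians; 88 points are filled on the left and 64 on the right, and open points on the right gather in the ribosome and polymerase rows.

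Whether sucrose acted differently in GNLox than in Col-0 was tested as the difference of their sucrose responses. All 92 differences were negative, with a median of -2.30, and 78 had an unadjusted p under 0.05, as had 14.9% of all genes, but none was called by edgeR, where 0.356% of all genes were called lower and 0.762% higher. rbcL had the largest difference, -4.42 ± 1.07 (adjusted p = 0.0608), and psaB differed by -3.36 ± 0.79 (adjusted p = 0.0563). DESeq2's Wald test called 34 plastid genes lower, beside 2.00% of all genes. In 12 fits that each left out 1 library, edgeR called 0 to 27, with 27 when replicate 1 of GNLox without sucrose was left out. No plastid gene was called in all 12, and the shares of all genes called in these fits are not given here.

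In Col-0 itself 1 plastid row fell with sucrose and none rose by edgeR, and 1 had an unadjusted p under 0.05 (56.2% of all genes), where 23.8% of all genes fell and 26% rose. With inverted-repeat copies summed, edgeR called 0 and 0 had an unadjusted p under 0.05. The row called, the second copy of rpl23, had 4.68, 2.38 and 2.41 CPM with sucrose, against 1.59, 22.1 and 25.1 CPM without it, and groups that overlapped. The median over the 92 genes was -0.56 and 87 differences were negative. For 21 genes the sucrose libraries were all below those without sucrose, beside 28.7% of all genes. psaB, for example, had 1235, 1112 and 601 CPM against 1362, 1569.5 and 2039.9 CPM (-0.75 ± 0.55, adjusted p = 0.269 by edgeR).

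In the comparisons that remain no plastid gene was called by this fit, though the fit with the nuclear rRNA covariate called 13 lower in gnc gnl against Col-0 without sucrose, 1 lower in GNLox against Col-0 without sucrose and 20 higher with sucrose in gnc gnl. Without sucrose, GNLox against Col-0 gave 0 calls by edgeR and by DESeq2, with 2 genes at an unadjusted p under 0.05 (27.7% of all genes), where edgeR called 7% of all genes lower and 6.53% higher, and DESeq2 8.08% and 8.49%. Its median was 0.40 with all libraries and -0.69 without GNLox replicate 3, so its direction rests on that library. For gnc gnl against Col-0 without sucrose, 0 were called by both tools and 18 had an unadjusted p under 0.05, as had 18.2% of all genes (median -0.77), where edgeR called 0.301% of all genes lower and 0.991% higher, and DESeq2 1.31% and 3.39%. Of the 13 rows of the rpl23 to rpoA operon 9 were among those 18, and the median of the 13 was -1.01. In that comparison 32 of the 92 genes had all 3 mutant libraries below those of Col-0, beside 12.1% of all genes. rpl32 had the smallest p, with 5.59, 11.6 and 7.53 CPM in gnc gnl against 19.2, 23.5 and 31.2 CPM in Col-0 (-1.59 ± 0.55, adjusted p = 0.152 by edgeR). With sucrose, gnc gnl against Col-0 gave 0 calls by both tools and 0 unadjusted p under 0.05, beside 16.6% of all genes (median -0.26), where edgeR called 0.105% of all genes lower and 0.0548% higher, and DESeq2 1.04% and 0.516%. Sucrose in gnc gnl also gave 0 calls by both tools, with 2 unadjusted p under 0.05, beside 42.8% of all genes, and a median of 0.02, where edgeR called 14.3% of all genes lower and 17.9% higher, and DESeq2 15.5% and 19.3%.

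With sucrose in gnc gnl, 3 of the 92 plastid genes had all libraries below those without sucrose and 1 had all above, beside 24% and 25.5% of all genes. The values of 3 of these, chosen after they were seen, are given next, and none of the 3 was called. psbA, for the reaction centre protein D1, had 84.1, 93.5 and 191 CPM with sucrose, against 379, 538 and 233 CPM without it (-1.64 ± 0.70, adjusted p = 0.0854 by edgeR). rbcL had 245, 271 and 721 CPM against 1127, 1562 and 736 CPM (-1.47 ± 0.74, adjusted p = 0.142). rpl14 of the rpl23 to rpoA operon had 67.2, 47.01 and 102 CPM with sucrose, against 29.8, 45.6 and 39.5 CPM without it (0.92 ± 0.40, adjusted p = 0.0905). The difference of the sucrose responses of gnc gnl and Col-0 had 0 plastid calls by both tools, 1 unadjusted p under 0.05 (7.56% of all genes) and a median of 0.58, and edgeR called 0% of all genes, DESeq2 0.256% lower and 0.0548% higher.

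The balance among plastid genes can be read from each gene's share of the plastid reads of its own library, which does not depend on how much plastid RNA there was. The 15 genes read mainly by PEP made up 28.3, 23.7 and 27.2% of plastid reads in GNLox with sucrose, against 42.7, 47.1 and 53.97% in GNLox without sucrose and 48.8, 43.99 and 42.2% in Col-0 with sucrose. The rpl23 to rpoA operon made up 19.7, 29.1 and 20.5% in GNLox with sucrose, against 12.6, 10.8 and 8.24% in GNLox without sucrose and 8.56, 9.65 and 12.5% in Col-0 with sucrose. Neither measure of GNLox with sucrose overlapped any other group, and GNLox replicate 3 without sucrose did not set the contrast, since replicates 1 and 2 of its group were also far from the sucrose libraries. In gnc gnl the PEP list took 36.5, 42.2 and 43.6% with sucrose, against 58.8, 56.3 and 52.4% without it, and the rpl23 to rpoA operon 13.4, 11.04 and 10.7% against 5.64, 5.96 and 7.03%. These groups did not overlap. Col-0 without sucrose had 53.7, 46.5 and 48.7% and 7.19, 9.25 and 8.72%, and its PEP share overlapped that of Col-0 with sucrose. Counting error was at most 0.295 percentage points either way (95% Wilson interval). The 6 rows read mainly by NEP took 6.40 ± 0.543% in GNLox with sucrose, against 3.95 ± 0.537% in GNLox without sucrose and 4.42 ± 0.289% in Col-0 with sucrose (SD, n = 3 each).

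This balance also moved with the nuclear rRNA share within groups. In 5 of the 6 groups the library with the most nuclear rRNA had the highest PEP share, in 5 of 6 it had the lowest share of the rpl23 to rpoA operon, in 5 of 6 the highest share of rbcL, in 4 of 6 the highest plastid share of gene reads, and in 6 of 6 the highest mitochondrial share. A fit with each library's nuclear rRNA level as a covariate, added after the data were seen, called 57 plastid genes lower with sucrose in GNLox (median -1.31), and 5 lower in GNLox against Col-0 with sucrose (median -0.69), namely psaA, rps14, petD, petB and psbB. All 14 PEP genes remained among the 57, with rbcL at -2.03 and psaB at -2.38. Of the 13 rows of the rpl23 to rpoA operon 1 was called. In this fit 43 plastid genes fell with sucrose in Col-0 (median -0.77), 13 fell in gnc gnl against Col-0 without sucrose (median -1.25) and 20 rose with sucrose in gnc gnl (median 0.78), 9 of them rows of the rpl23 to rpoA operon. In this fit 21.8% of all genes fell with sucrose in GNLox, 4.1% in GNLox against Col-0 with sucrose, 24.2% with sucrose in Col-0 and 0.374% in gnc gnl against Col-0 without sucrose, and 16.1% rose with sucrose in gnc gnl. In GNLox against Col-0 without sucrose 1 plastid gene fell, beside 6.94% of all genes.

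**Figure D4:**
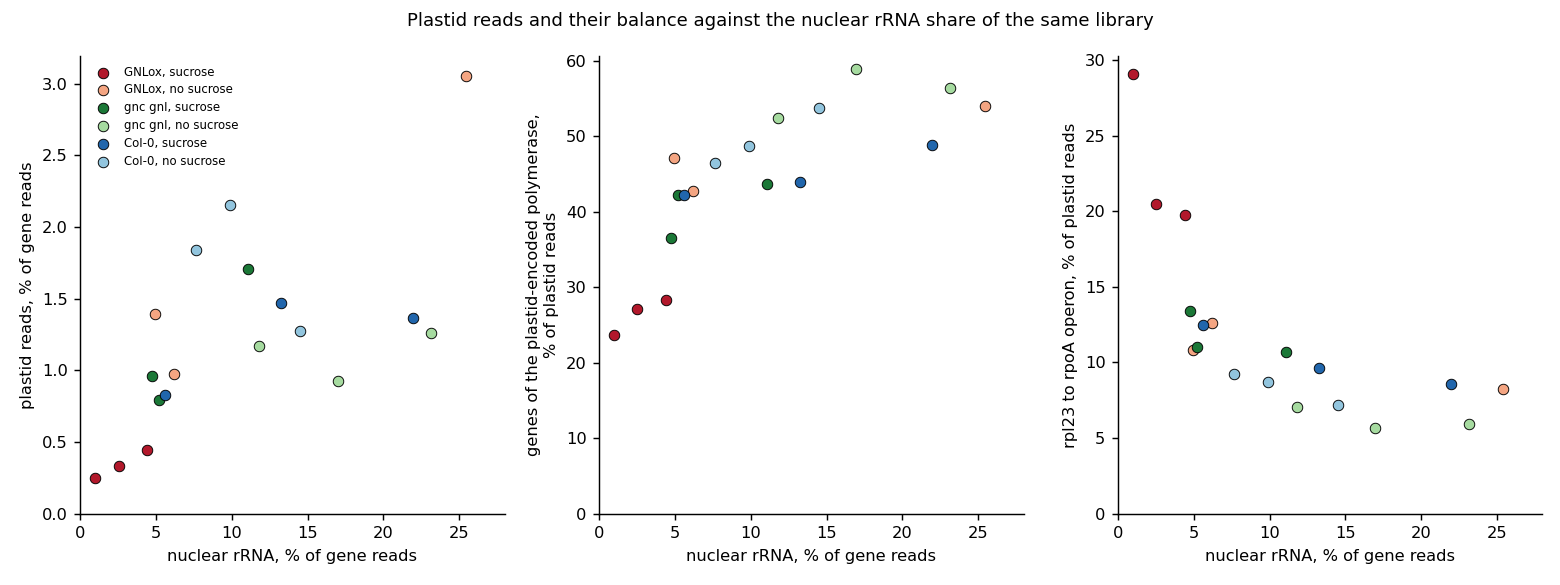
Nuclear rRNA as a percentage of gene reads (x axis) against the plastid share of gene reads (left), the share of plastid reads from genes read mainly by the plastid-encoded polymerase (middle) and from the rpl23 to rpoA operon (right); each point is 1 of 18 libraries, coloured by group. The 3 libraries of GNLox with sucrose hold the low end of nuclear rRNA, at 1.00% to 4.40%, and of the middle panel, at 23.7% to 28.3%.

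Levels per length, as TPM of the authors, ranked photosynthesis genes highest in Col-0 without sucrose. psbC led with 1842 ± 518 TPM, followed by psbD with 1726 ± 515, psaB with 1263 ± 281 and rbcL with 1232 ± 199 TPM (SD, n = 3), and these neighbours lie within each other's spread. rpl16 stood at 625 ± 221 TPM there. In GNLox with sucrose, genes of the rpl23 to rpoA operon led, with rpl16 at 398 ± 53.7 TPM, rpl14 at 247 ± 29.5 and rps3 at 234 ± 33.4 TPM. Below them atpA stood at 208 ± 80.00 and psbC at 186 ± 60.4 TPM, within the spread of rps3, while rbcL stood at 116 ± 41.5 TPM. In these libraries rpl16 was above psbC and rbcL by more than the SD of either.

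The nuclear genes that serve plastid transcription were mostly not called lower in the GNLox comparisons with the fewest plastid reads. Of the 12 PEP-associated proteins on the list, 4 rose in GNLox against Col-0 with sucrose and none fell (edgeR), where 10.2% of all genes rose and 10.2% fell. Leaving out 1 library gave 3 to 8, with 3 without GNLox replicate 2 and 8 without GNLox replicate 3, and the fit with the nuclear rRNA covariate gave 0. PAP10 had 9.23, 12.2 and 8.05 CPM in GNLox against 5.07, 6.38 and 4.97 CPM in Col-0 (0.84 ± 0.16, adjusted p = 0.00314), PAP9 differed by 0.97 ± 0.23, PAP5 by 0.90 ± 0.21 and PAP8 by 0.38 ± 0.13. None of the 6 sigma factors and neither phage-type polymerase, RPOTp or RPOTmp, was called in that comparison. With sucrose in GNLox, where 26.1% of all genes fell, PAP8 fell (-0.65 ± 0.13). So did the sigma factor SIG4 (-1.55 ± 0.44), whose groups overlapped, with 15.6 CPM in GNLox replicate 2 with sucrose. With sucrose in gnc gnl, where 14.3% of all genes fell, PAP8 (-0.60 ± 0.13) and RPOTmp (-0.50 ± 0.14) fell. PAP8 fell with sucrose in Col-0 too (-0.87 ± 0.13). In Col-0, 8 of the 12 PEP-associated genes fell with sucrose, as did SIG2, RPOTp and RPOTmp, by 0.36 to 0.87 on the log2 scale, where 23.8% of all genes fell. Of the 12, 2 were called without Col-0 replicate 3 with sucrose or without replicate 2 or 3 of Col-0 without sucrose, 3 without Col-0 replicate 1 and 4 without Col-0 replicate 2, both with sucrose. Without sucrose GNLox had less SIG5 (-1.18 ± 0.33), RPOTp (-0.78 ± 0.25) and RPOTmp (-0.51 ± 0.14) than Col-0.

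Promoter letters were looked at because genes read by PEP fell most. Bacterial-type promoters carry an upstream box, TTGACA, and nearer the start a second box, TATAAT. In windows from 250 bases before to 50 bases after the start of each coding row, on both strands, TTGACA occurred in 15 of 88 (17.0%) and TATAAT in 36 of 88 (40.9%), beside 29 of 133 (21.8%) and 50 of 133 (37.6%) of all plastid rows. TTGACA followed after 16 to 19 bases by TANNNT, a relaxed form of the second box, on the gene's strand occurred in 3 of 88 windows, those of psbA and both ycf1 rows. The stretch before psbA is shown with its boxes in capitals (RefSeq TAIR10.1, plastid positions 1522 to 1567, minus strand), from -115 at the first base of the first box to -86 at the last base of the second, counted from the start codon.
psbA: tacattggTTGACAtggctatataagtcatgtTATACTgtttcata
With sucrose in GNLox psbA fell by 3.94 and the shorter ycf1 row by 2.49, while full-length ycf1 was not called. Of the rows with this pair of boxes, psbA and full-length ycf1 thus lay apart in size, and that contrast was not tested. Whether the windows of the ycf1 rows are separate sequences was not tested either, so the contrast between those rows says nothing about the boxes.

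Base composition varied along with the size of the difference. Over 77 coding genes, with inverted-repeat copies summed, the log2 sucrose difference in GNLox had a Spearman correlation of -0.56 with the percentage of G and C in the gene row and of 0.49 with the length of its longest run of A. With length and mean CPM the correlations were 0.07 and -0.23. For GNLox against Col-0 with sucrose the correlations were -0.43 with G and C and 0.48 with the longest run of A. Rows of spliced genes include their introns, and whether the runs lie in introns was not tested. Genes are not independent of each other, since operon partners share transcripts, so these values describe the genes and carry no test. With sucrose in GNLox, the 31 genes whose longest run held at most 5 A had a median difference of -3.34. The median was -2.72 for the 29 genes with 6 to 8 A and -2.45 for the 17 with 9 to 14. Composition and function overlap, as the 4 polymerase genes had longest runs of 9 to 14 A and the photosystem II genes of 2 to 6. The longest run, in capitals, is shown with its surroundings for 3 genes of large and 3 of small difference, each 30 bases of the strand of the gene (RefSeq TAIR10.1).
rbcL: taaaccaaaattggggttatccgcgAAAAA
psbB: agttatagtgatcccgcaactgtgAAAAAA
psaB: cccgAAAAAcaaatcttgatcgaacctata
rpl16: AAAAAAAAAAAgaataaagaactataatta
rpoA: aacctaagAAAAAAAAAAAAAAcaaaagaa
ycf1: gaatgaagaaaatggagAAAAAAAAAAAAA
These stretches lie at Pt:55479-55508 (rbcL, plus), Pt:73598-73627 (psbB, plus), Pt:38206-38235 (psaB, minus), Pt:82435-82464 (rpl16, minus), Pt:78087-78116 (rpoA, minus) and Pt:125868-125897 (ycf1, minus). Their genes differed with sucrose in GNLox by -4.77, -4.21, -4.11, -1.52, -1.63 and -0.85. The run of rpl16 has 11 A, that of rpoA 14 and that of ycf1 13, but petD, with a run of 12, fell by 3.86, and rpl36, with a run of 4, by 1.54.

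**Figure D5:**
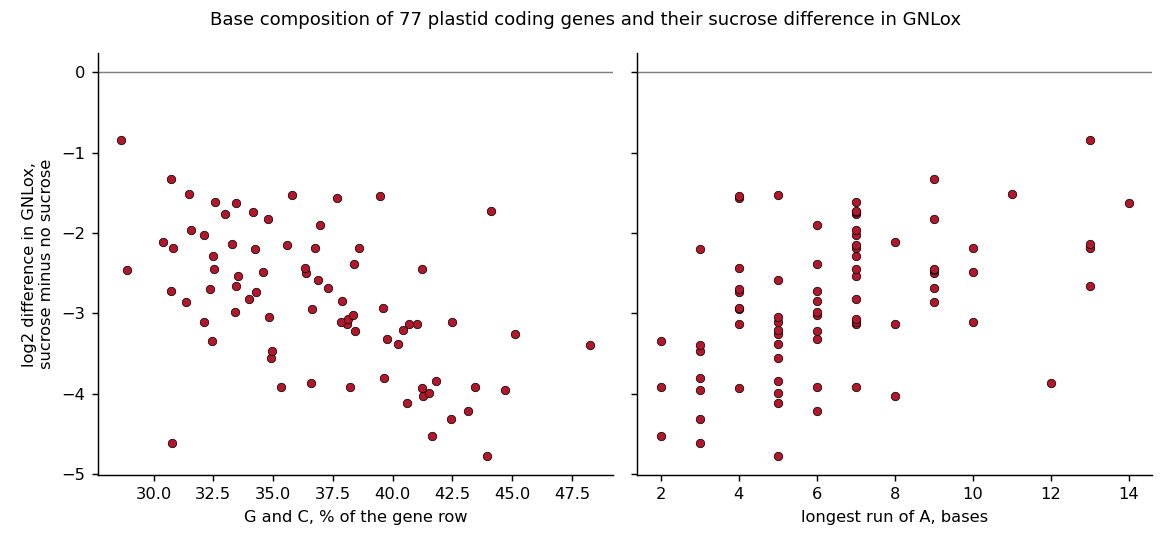
log2 sucrose difference in GNLox (y axis) against the percentage of G and C (left) and the longest run of A (right) of 77 plastid coding genes, each a point. Genes with more G and C lie lower (Spearman -0.56) and genes with longer runs of A lie higher (0.49), with exceptions on both sides.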

How the data were processed

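Total RNA of 18 seedling samples was extracted with a NucleoSpin kit, per the labels' protocols, and reads were placed on TAIR 10, per the submitters' processing notes. Library kit, strand, aligner and counting program: not given in the sources used here, so sense and antisense reads cannot be told apart. Per the file headers, the authors deposited read counts per gene (total or unique; gene, exon, intron), RPKM and TPM values, and fractions of unique and intron reads. RPKM and the deposited fractions entered no result. The authors' TPM rests on exon reads and exon length at a common sum per library, per the deposited values, and TPM served only for levels between genes.

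The test used total gene reads and edgeR 4.0.16 (limma 3.58.1, R 4.3.3): filter for low counts, TMM scaling, 1 model of 6 group means over 18 libraries with robust quasi-likelihood dispersion, 12 residual degrees of freedom and Benjamini-Hochberg adjustment over 21903 genes, two-sided. A gene was called at an adjusted p under 0.05, and risen or fallen means called. log2 differences carry an SE, which is the difference divided by the square root of F. DESeq2 1.42.0 was an alternative. The fits were tested on simulated data. rRNA rows stayed in the library sizes.

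Plastid rows were compared with RefSeq TAIR10.1, where 124 of 133 had the same start, end and strand. Promoter windows were read from that genome, in place of a promoter table that the design named. Members and lists of functions, operons and polymerases came from textbook knowledge and were chosen with earlier results of these data known. Values in every library were given for the 2 members of highest TPM per function and for the 3 called members of largest increase and decrease per comparison, counting inverted-repeat copies once. Others were named to describe their group. Deviations from group means over genes were correlated between libraries of like and unlike replicate number. In GNLox against Col-0 without sucrose, replicates 1 and 3 correlated most with their own number (0.409 and 0.26, against at most -0.128 and 0.176 with others). Replicate 2 did not (0.126 against 0.176). In no other comparison did as many numbers pair. A block for the number changed no call in GNLox against Col-0 without sucrose. Intervals cover counting error only, as PCR copies are counted as reads.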

Additional observations from a re-analysis of the deposited data

How the results depend on the processing

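Counts of called plastid genes were recomputed with unique or exon reads, RLE scaling, every gene with a read, the DESeq2 test, the compared groups fitted alone, replicate number as a block, library sizes from nuclear genes, counts without rRNA, and each library left out; summed inverted-repeat copies and the nuclear rRNA covariate were chosen after seeing the data. With the covariate the counts were 57 lower for sucrose in GNLox, 20 higher for sucrose in gnc gnl, 43 lower for sucrose in Col-0, 5 lower for GNLox against Col-0 with sucrose, 1 lower without sucrose, and 13 lower for gnc gnl against Col-0 without sucrose. In GNLox against Col-0 with sucrose it reversed rpoA, to 0.088, and rpl16, to 0.18, neither called; the cause was not tested. The single call for sucrose in Col-0 became 0 without the filter, with the replicate block, with unique reads and with copies summed. It became 8 with only the compared groups, which gave 2 for sucrose in gnc gnl. Shares of all genes called are given here only for the main fit, DESeq2 and the covariate fit. Counts from the other fits therefore cannot be set against such a share. DESeq2 gave 34 lower for the difference of sucrose responses of GNLox and Col-0. Leaving out a library gave 76 to 90 lower for sucrose in GNLox, 31 to 63 for GNLox against Col-0 with sucrose, 0 to 1 for sucrose in Col-0, 0 to 1 higher for GNLox against Col-0 without sucrose, and 0 to 27 lower for that difference of responses. The replicate block left the other counts within 1.5 times (88 and 65 lower). As a share of nuclear reads other than rRNA, plastid reads were 2.91% in GNLox without sucrose and 1.57% in gnc gnl without sucrose, and as a share of unique reads 1.40% in the last. For 25 named genes with sucrose in GNLox, 420 of the alternative values kept direction and call and 4 lost the call. For GNLox against Col-0 with sucrose, 367 kept direction and call, 49 lost the call, 4 were stronger and 2 reversed direction. Genes with few reads, such as psbL and the transfer RNAs, are limited by depth.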

Other observations

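Reads within introns took a larger part of some spliced plastid transcripts in GNLox with sucrose. Of 15 spliced coding rows, among them both copies of 3 inverted-repeat genes, 7 had all GNLox libraries with sucrose above those without it and 2 all below, and 8 lay all above and 0 all below Col-0 with sucrose. Of 1043 genes with at least 1000 intron reads in all, 3.26% lay above and 36.0% below in the first comparison, and 3.26% and 15.0% in the second. The genes named here were chosen after their values were seen. For petB, cytochrome b6, introns held 39.3, 40.02 and 37.7% of reads in GNLox with sucrose, against 33.3, 34.8 and 31.3% in GNLox without sucrose and 32.1, 35.2 and 34.9% in Col-0 with sucrose, and the groups did not overlap. For petD, subunit IV of the same complex, the values were 25.4, 29.6 and 28.99% in GNLox with sucrose, against 22.4, 23.4 and 22.6% in GNLox without sucrose and 21.4, 24.3 and 20.3% in Col-0 with sucrose. clpP1, the Clp protease subunit, had 54.5, 52.2 and 55.9% in GNLox with sucrose, against 50.9, 50.9 and 47.3% in GNLox without sucrose and 46.9, 50.1 and 49.1% in Col-0 with sucrose, again without overlap. Not every spliced gene followed: the intron share of rps16 averaged 83.2% in GNLox with sucrose, against 86.6% in GNLox without sucrose and 83.1% in Col-0 with sucrose. The 2 spliced rows of rps12 averaged 42.8 and 42.5% in GNLox with sucrose, against 46.4 and 46.2% in GNLox without sucrose. gnc gnl with sucrose also had a high petB share, 39.9, 38.6 and 37.2%, against 31.9, 30.6 and 32.00% without it. Its clpP1 share averaged 53.04% with sucrose, against 48.4% without it. With sucrose in gnc gnl, 3 of the 15 rows (clpP1, petB and ycf3) lay all above and 4 all below, beside 4.51% and 13.2% of the 1043 genes. These shares carry no test. GNLox with sucrose also had the lowest nuclear rRNA share, and its part in the intron shares was not tested.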
